A study of Mus musculus with 26 samples.

Results

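Efcab1, Ube2v2, Mcm4, Prkdc, Cebpd, Pkp2, Yars2, Dnm1l and Fgd4 are 9 protein-coding genes that lie within 2 Mb of Snai2 on mouse chromosome 16. They were taken by name and position, as rows of a count table of 45706 genes. Snai2 itself spans positions 14705852 to 14709385 of chromosome 16 (GRCm38, plus strand), and all 9 genes lie on its higher-coordinate side. In order of distance between gene bodies, Efcab1 was 0.197 Mb away, Ube2v2 0.843 Mb, Mcm4 0.915 Mb, Prkdc 0.928 Mb, Cebpd 1.178 Mb, Pkp2 1.504 Mb, Yars2 1.594 Mb, Dnm1l 1.603 Mb and Fgd4 1.708 Mb. The question put to them was whether expression beside the LacZ allele of Snai2 differed between null and wild-type cells.

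RNA came from mammary glands of mice labelled strain B6.129S1, either wild type or Snai2-LacZ/LacZ, aged 3 or 12 months. Each of the 26 libraries was 1 sorted fraction from a pool of 3 mice, and each of the 13 groups held 2 libraries. Wild-type pools F79 and F81 (3 months) and A1 and A2 (12 months) each gave luminal, basal and stromal fractions. Null pools F82 and F84 (3 months) gave luminal, stromal and luminal-basal fractions, and null pools A5 and A6 (12 months) gave luminal, stromal, luminal-basal and basal fractions. No null basal library at 3 months was analysed here. All groups carry the same strain label, which does not say what DNA flanks Snai2 in the wild-type mice. No pool contributes to more than 1 genotype or age, and these cannot be told apart from a pool or batch effect; p-values measure the spread between pools. Cells were gated on EpCAM and CD49f, and in such bulk fractions fewer cells of a type and less RNA per cell cannot be told apart.

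As background, Snai2 (Slug) is a zinc-finger repressor of the Snail family that marks basal mammary cells and binds the E-box hexamer CACCTG. A targeted allele made in one mouse strain and bred into another keeps a stretch of donor chromosome around it, so genes near the allele can differ in sequence from those of wild-type mice. An inserted reporter or selection cassette can also act on promoters nearby. The neighbours themselves do unrelated work. Mcm4 is a subunit of the replicative DNA helicase, Prkdc is the catalytic subunit of the DNA-dependent protein kinase of end joining, and Ube2v2 is an inactive ubiquitin-conjugating enzyme variant that pairs with Ube2n in DNA damage tolerance. Cebpd is a C/EBP transcription factor that rises when the gland regresses after lactation, Pkp2 is a plakophilin of desmosomes, and Fgd4 (frabin) is an exchange factor for the GTPase Cdc42. Yars2 charges tRNA with tyrosine in mitochondria, Dnm1l (Drp1) divides mitochondria, and Efcab1 (calaxin) is an EF-hand protein of motile cilia.

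Promoter windows of RefSeq (GRCm38.p6, 250 bases before to 50 after a transcript start) were matched for 3 of the 9 genes, Yars2, Dnm1l and Fgd4, which had 6 windows together. The motif CACCTG was searched on both strands, so that CAGGTG also counts. It stood in 3 of these 6 windows and in 6640 of all 32851 windows (20.2%). The sequences of 2 genes are shown, each window up to the first annotated exon base inside it. Fgd4 was taken because its luminal libraries separated the genotypes in scaled counts. Dnm1l was taken because its ratio of highest to lowest level was the smallest of the 9. Fgd4 is read from the minus strand at chr16:16600040-16600228 and Dnm1l from the minus strand at chr16:16359032-16359281, each 5′ to 3′ with CAGGTG in capitals.
Fgd4: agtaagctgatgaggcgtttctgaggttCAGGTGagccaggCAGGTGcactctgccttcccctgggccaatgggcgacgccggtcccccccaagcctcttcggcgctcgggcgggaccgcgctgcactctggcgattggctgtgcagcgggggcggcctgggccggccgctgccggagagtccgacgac
Dnm1l: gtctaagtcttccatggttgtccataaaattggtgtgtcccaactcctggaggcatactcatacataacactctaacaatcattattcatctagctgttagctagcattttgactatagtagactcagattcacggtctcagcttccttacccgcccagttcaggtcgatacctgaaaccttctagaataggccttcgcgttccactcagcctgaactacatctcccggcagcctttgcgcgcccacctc
Among the windows of each gene, these lie farthest upstream. The Fgd4 stretch shown lies inside the annotated gene body, which spans 16416917 to 16600549. The Fgd4 window shown held 2 matches and the other 2 Fgd4 windows held 1 and 0. The Dnm1l window shown held 0 and the other Dnm1l window 1, and the Yars2 window held 0. A match of letters is a description and does not show that a factor binds there.

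Library totals ran from 2951035 to 16649904 counts (median 5482746.5). Snai2 had 4 to 597 counts in the 12 wild-type libraries and 0 to 4 in null libraries, except 44 in the F82 luminal-basal library. The A5 libraries labelled stromal and luminal-basal went against their labels (1025 CPM of the basal keratin Krt14 and 23.9 CPM of the fibroblast collagen Col1a1 in the first, 34.8 and 1218 CPM in the second) and were left out of the fit. CPM are counts scaled for library size by TMM. The lone A6 libraries of these groups were assumed to vary like the others. The A6 stromal library had 1 Snai2 count but 2 counts of Rpl34-ps1. This pseudogene had 0 to 6 counts in wild-type libraries and 36 to 239 in the other null libraries. The A6 stromal library also held 2.83 CPM of another pseudogene, Rps2-ps10, against 2.75 to 7.97 CPM in wild type and 11.6 to 43.2 CPM in the other null libraries. It is the only null library fitted in 12-month stroma. Both null 12-month basal libraries were poor in basal markers, whose 7 genes summed to 757 and 938 CPM against 3920 and 4504 CPM in wild type. All 9 neighbours passed the low-count filter, among 17234 genes tested.

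Next to the deleted gene, none of the 9 neighbours passed the test in luminal cells. In the mean of both ages, 4 null against 4 wild-type pools, 0 of 9 were called at an adjusted p under 0.05, beside 0.0116% of all genes tested (2 genes, Rpl34-ps1 on chromosome 6 and Rps2-ps10). DESeq2 called 16 genes and 0 of the 9. Both genes called were higher in null cells (0.0116%, with 0% called lower). At an unadjusted p under 0.05 the count was 2 of 9, Efcab1 and Fgd4, against 3.78% of all genes. The median log2 difference of the 9 genes was 0.15, and that of all genes was 0.00. Single ages gave the same count of 0 in edgeR and in DESeq2: percent called was 0.0058% over all genes at 3 months and 0.0232% at 12 months. At an unadjusted p under 0.05 stood 0 of the 9 at 3 months (3.27% of all genes) and 2 of 9 at 12 months (4.93%).

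**Figure D1:**
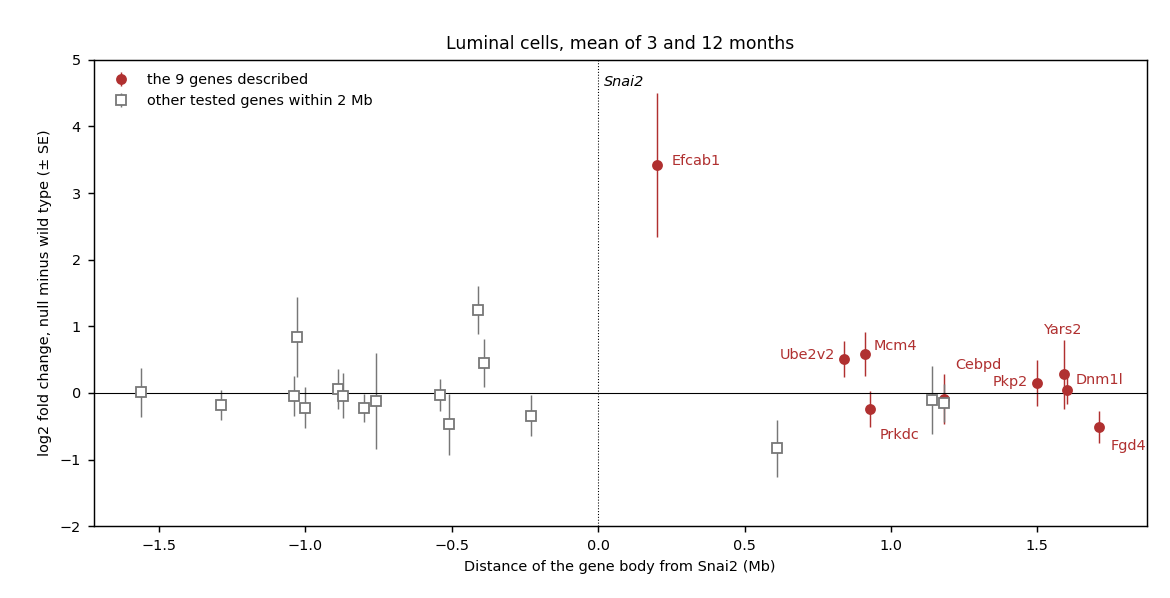
Log2 fold change of null against wild-type luminal cells (vertical, mean of 3 and 12 months, bars ± SE from edgeR) by distance from Snai2 in Mb (horizontal, 0 is Snai2) for the 9 genes described (filled) and the other genes tested within 2 Mb (open). Efcab1, the nearest gene, lies at 3.42 ± 1.08 and Fgd4, the farthest of the 9, at -0.51 ± 0.24, and no gene shown passed the adjusted test.

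The wider neighbourhood gave the same count of 0 called genes in luminal cells. Of 57 genes of the table within 2 Mb of Snai2, 27 were tested, 15 before it and 12 after it. None of the 27 was called in luminal cells at either age or in their mean, nor in stroma at either age. Over all genes, 0% to 0.0232% were called in these comparisons. The median log2 difference of the 27 in the luminal mean was -0.04. At an unadjusted p under 0.05 there were 3 of 27 in the luminal mean, against 3.78% of all genes. These were Efcab1, Fgd4 and Myh11, the smooth-muscle myosin gene on the other side of Snai2 (1.24 ± 0.36, adjusted p = 0.87). Out to 20 Mb, 280 genes were tested and 0 were called in that mean. Myh11 is also a basal marker, and it lay at 18.2 to 190 CPM in wild-type and 76.9 to 180 CPM in null luminal libraries, which overlap. Windows of 1 Mb (15 genes tested) and 5 Mb (111 genes tested) held 0 called genes in the luminal mean, where 0.0116% of all genes were called. In the mean of luminal cells at both ages and 3-month stroma, 5 of 27 genes within 2 Mb stood at an unadjusted p under 0.05 (5.97% of all genes). Of these, 4 were among the 12 genes after Snai2 and 1 among the 15 before it, and 0 of 27 were called.

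Fgd4, the exchange factor farthest from Snai2, was the neighbour whose luminal libraries separated by genotype in TMM-scaled CPM. Wild-type luminal libraries held 80.5 and 94.6 CPM at 3 months and 78 and 94.4 CPM at 12 months. Null luminal libraries held 53.8 and 57 CPM at 3 months and 62.2 and 73.5 CPM at 12 months. All 4 null values were below all 4 wild-type values. This was so for 1.83% of all genes tested and 1 of the 9 neighbours, and the reverse for 1.05% and 0 of 9. The separation rested on TMM scaling, and as CPM of all counts the libraries overlapped. Those values were 84.6, 98.7, 64.3 and 75.2 in wild-type and 71.5, 60.9, 66.9 and 77.4 in null luminal libraries. At 12 months their means were 69.8 in wild type and 72.1 in null cells. The log2 difference was -0.51 ± 0.24 (interval -1.01 to -0.01), with an adjusted p of 1 by edgeR, so it did not pass the test.
The same order held in stroma, the fraction of connective tissue cells. At 3 months wild-type stroma held 66.4 and 63.8 CPM of Fgd4 and null stroma 47.7 and 42.6 CPM. At 12 months wild-type stroma held 86.4 and 79.2 CPM, the A6 null library 59.5 CPM and the A5 library left out 51.7 CPM. That A6 library is the one with wild-type levels of Rpl34-ps1 and Rps2-ps10, and that A5 library carried basal keratins. In both groups the null libraries lay below the wild-type ones. With so few libraries this is common, in 20% of all genes at 3 months (1 of 9 neighbours, and 17.5% and 1 of 9 with null higher) and in 37.7% at 12 months (1 of 9, and 33.3% and 4 of 9 with null higher). The differences were -0.55 ± 0.34 at 3 months and -0.45 ± 0.42 at 12 months, each with an adjusted p of 1.
Averaged over luminal cells at both ages and stroma at 3 months, Fgd4 differed by -0.52 ± 0.20 (interval -0.93 to -0.12, adjusted p = 0.675 by edgeR). In that mean 0 of 9 neighbours were called, beside 0.0754% of all genes (13 genes, 0.0348% higher and 0.0406% lower, and 54 by DESeq2 with 0 of the 9), and 3 of 9 stood at an unadjusted p under 0.05 (5.97% of all genes). Its 3-month luminal and stromal libraries come from the same mice, and with the pool as a random block in limma the value was -0.53 with an adjusted p of 0.877. Over the alternatives other than leaving out a library, its adjusted p ran from 0.132 to 0.949. The genotypes overlapped in the other fractions: 12-month libraries labelled null basal held 52.5 and 28.3 CPM beside 78 and 47.9 CPM in wild type, and 3-month null luminal-basal libraries 85.7 and 63.6 CPM beside 45.1 and 80.9 CPM in wild-type basal cells.

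**Figure D2:**
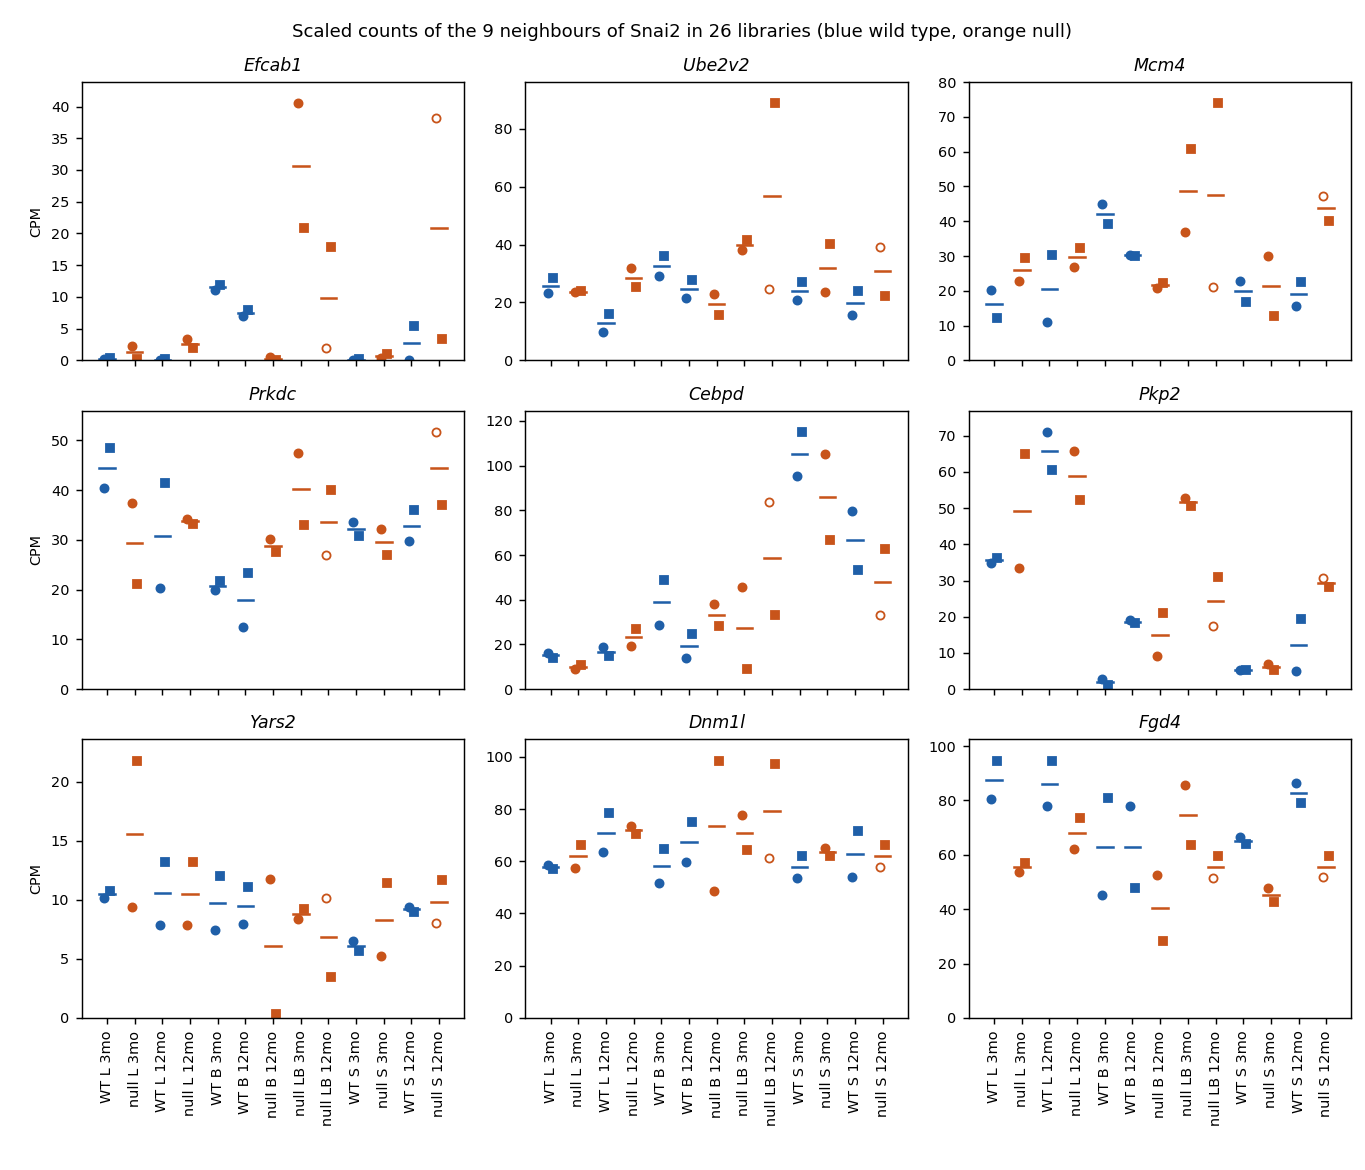
Scaled counts in CPM (vertical, linear from 0, a scale for each gene) of the 9 genes in all 26 libraries by group (horizontal: WT wild type, L luminal, B basal, LB luminal-basal, S stroma). A circle marks replicate 1 and a square replicate 2, a short line their mean, and open symbols the 2 A5 libraries left out of the fit. On this TMM scale Fgd4 is lower in null than in wild-type luminal and stromal libraries. Those differences did not pass the adjusted test, and as CPM of all counts the luminal libraries overlap. Efcab1 is near 0 in wild-type luminal and stromal libraries other than the A2 stromal one.

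Efcab1, the nearest neighbour and a gene of ciliary axonemes, was a basal gene here and scarce elsewhere. Wild-type basal libraries held 11.1 and 11.9 CPM at 3 months and 7.03 and 7.9 CPM at 12 months. Wild-type luminal libraries had 1, 2, 0 and 1 counts, 4 in all, and wild-type stromal libraries 0, 1, 0 and 30. The basal libraries lay above all luminal ones, as for 13.6% of all genes (1 of 9 neighbours, with 10.4% and 1 of 9 the other way). Efcab1 had 339 counts in basal libraries against 4 in luminal ones. The ratio of scaled counts was 58.3 (exact interval 22.6 to 215, counting error only), and the fitted log2 difference of 5.67 ± 0.99 had an adjusted p of 0.000302.
Null luminal libraries had more Efcab1 counts, 9 and 1 at 3 months and 20 and 10 at 12 months. Over both ages that is 40 counts against 4, a ratio of scaled counts of 12.3 (interval 4.44 to 47.3). The fitted difference of 3.42 ± 1.08 did not pass the test (interval 1.17 to 5.66, adjusted p = 0.87), and 1 null library, F84 with 1 count, lay among the wild-type values. Without a low-count filter, which leaves 27155 genes tested, the adjusted p was 0.013.
Basal markers differed beside it at 12 months. The 7 basal marker genes, all detected in each library, summed to 305 and 571 CPM in wild-type luminal cells at 3 months, 99.6 and 83 CPM at 12 months, and 567, 289, 482 and 498 CPM in the 4 null libraries. The part of basal cells in the luminal Efcab1 values was not tested. As a measure beside them, Efcab1 per 1000 counts of Krt14 and Krt5 was 6.45 to 11.1 in the 4 wild-type basal libraries. It was 3.26, 3.44, 0 and 10.3 in wild-type luminal libraries and 19.4, 3.6, 35.8 and 15.3 in null ones. Among these 8 luminal libraries the null A5 value of 35.8 (interval 21.7 to 55.8) alone had a counting interval above the wild-type basal intervals, which reached 16.8. Among stromal libraries the wild-type A2 one did so too, at 26.2 (interval 17.6 to 37.7). So did the null F84 one, at 100 from 4 Efcab1 counts (interval 26 to 277), and the null A6 one, at 38.3 (interval 22.1 to 62).

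**Figure D3:**
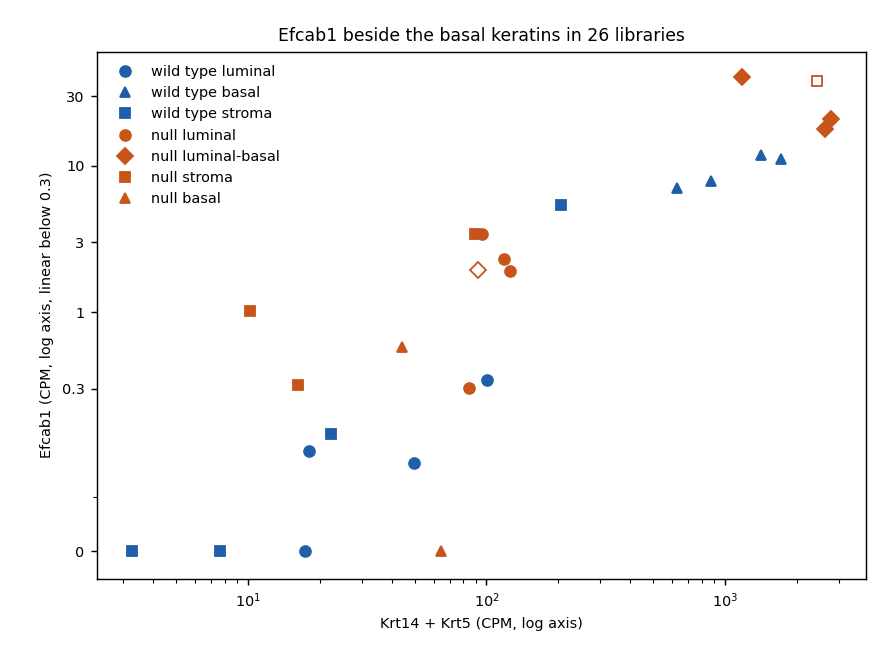
Efcab1 (vertical, CPM, log axis that is linear below 0.3) against the summed basal keratins Krt14 and Krt5 (horizontal, CPM, log axis) in 26 libraries. Colour is genotype (blue wild type, orange null), shape is fraction, and open symbols are the 2 A5 libraries left out of the fit. The F82 luminal-basal library, at 40.5 CPM of Efcab1, stands above the other libraries of similar keratin level.

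The highest Efcab1 levels were in null cells with basal keratins. The null luminal-basal libraries held 40.5 and 20.9 CPM at 3 months, and the A6 one held 17.9 CPM at 12 months. The A5 library labelled stromal, which carried basal keratins, held 38.2 CPM. Each of these 4 libraries was above the 4 wild-type basal libraries. Against 3-month wild-type basal cells, a fraction sorted under another label, the log2 difference was 1.44 ± 0.94 (interval -0.52 to 3.39, adjusted p = 0.65), and this was not a pass. Per 1000 keratin counts, the F82 luminal-basal library had 34.5 (interval 30.7 to 38.6), the F84 one 7.48 and the A6 one 6.77, the last 2 within the wild-type basal range. The A5 library labelled stromal had 15.7 (interval 13.7 to 17.8), above that range, with an interval that overlaps the one of A1 basal. The F82 library was also the null library with the most Snai2 counts and 3365 CPM of fibroblast markers, against 245 CPM in F84. Among 12-month basal libraries Efcab1 fell, from 23 and 59 counts in wild type to 3 and 0 in null cells (log2 difference -4.37 ± 1.31, adjusted p = 0.0362). It was the 1 neighbour of 9 called there, beside 11.2% of all genes (1926 genes, 5.13% higher and 6.05% lower), and the 1 of 9 at an unadjusted p under 0.05 (28% of all genes). In these null libraries the basal list was low, as given above, and the 5 endothelial markers summed to 1941 and 1965 CPM against 371 and 466 CPM in wild type; their part was not tested. The call was lost with all 26 libraries in the fit (adjusted p = 0.125) and with only the libraries compared (0.164), and without A1 (0.102), A2 (0.134) or null A6 (0.179).

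**Figure D4:**
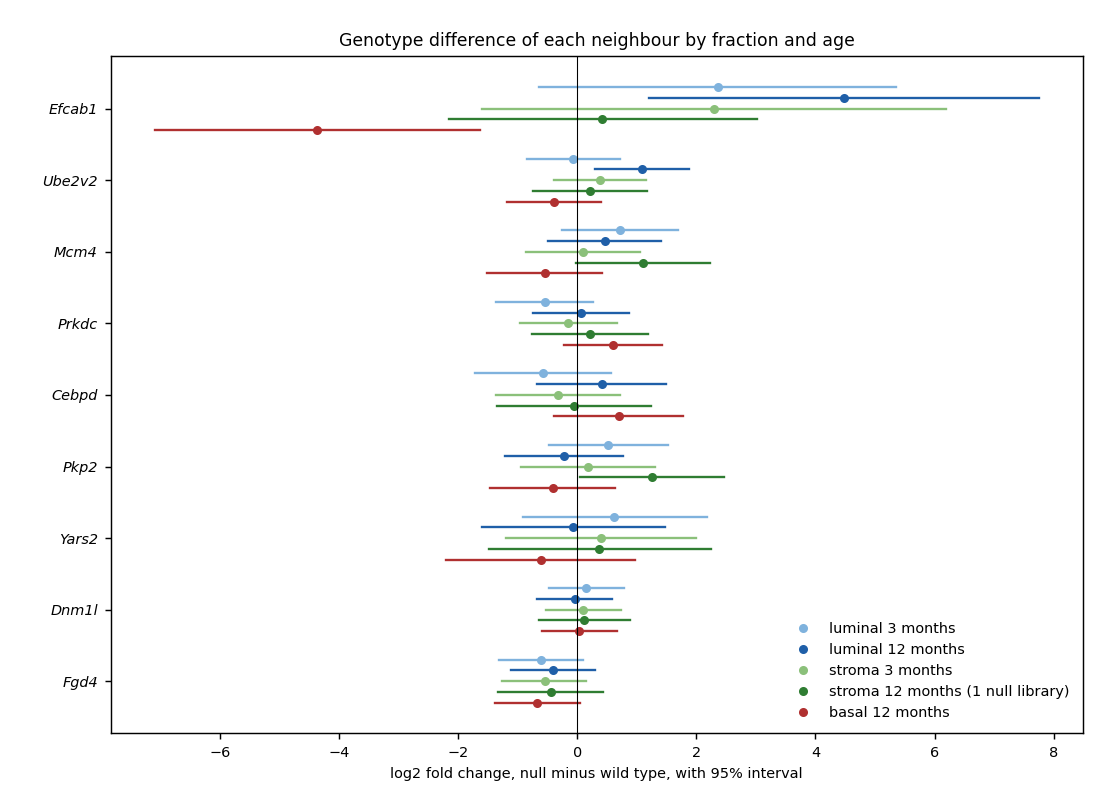
Log2 fold change of null against wild type (horizontal, points, with 95% intervals from edgeR) for each of the 9 genes (vertical) in 5 comparisons by fraction and age, by colour. All intervals except that of Efcab1 in 12-month basal cells belong to differences that did not pass the adjusted test, and those of Dnm1l are among the narrowest.

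The other 8 neighbours did not pass in the 12-month basal libraries. Null libraries lay apart from wild type for 2 of the 9 below (27.6% of all genes) and 2 of 9 above (19.5%). Fgd4 stood at -0.67 ± 0.34 (adjusted p = 0.207) and Prkdc at 0.60 ± 0.40. Cebpd stood at 0.70 ± 0.52 and Mcm4 at -0.55 ± 0.46. Within 2 Mb, 4 of 27 genes passed in this comparison, where 11.2% of all genes did: Mkl2 (1.33 ± 0.32) and Marf1 (1.85 ± 0.35) were higher in null cells, and Myh11 (-2.24 ± 0.52) and Efcab1 were lower. Without the A5 null library the lone null library was A6, and 3 of 9 neighbours were called, beside 27.7% of all genes: Efcab1, Fgd4 (-1.18, adjusted p = 0.0297) and Yars2 (-4.75, adjusted p = 0.00292), which had 1 count in A6. In stroma 0 of 9 passed at 3 months, beside 0.0116% of all genes (2 genes, 6 by DESeq2 with 0 of the 9), with 0 of 9 at an unadjusted p under 0.05 (4% of all genes). At 12 months 0 of 9 passed, beside 0% of all genes (9 genes by DESeq2 with 0 of the 9), with 1 of 9 at an unadjusted p under 0.05, Pkp2, against 4.8% of all genes.

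The 3 genes of DNA replication and repair lie side by side. Mcm4 (minus strand) and Prkdc (plus strand) are transcribed away from each other, with 465 bases between their bodies. Mcm4 held 20.3, 12.3, 11 and 30.3 CPM in wild-type luminal libraries, and 22.7, 29.4, 27 and 32.3 CPM in null ones. In TMM-scaled CPM only the 12-month A2 library of the wild types reached the null values. The difference was 0.59 ± 0.33 (interval -0.09 to 1.27, adjusted p = 1). It was 0.72 ± 0.47 at 3 months and 0.46 ± 0.46 at 12 months. As CPM of all counts the null luminal libraries all lay above the wild-type ones. Those values of Mcm4 were 21.4, 12.9, 9.07 and 24.1 in wild-type and 30.2, 31.4, 29 and 34.1 in null luminal libraries. The share of all genes apart on that scale was not computed.
In 12-month stroma the A6 null library held 40 CPM of Mcm4 against 15.6 and 22.5 CPM in wild type (1.10 ± 0.54, adjusted p = 1). This library is the one with few Rpl34-ps1 counts.
Prkdc, across the shared gap, held 40.5, 48.4, 20.3 and 41.4 CPM in wild-type luminal cells and 37.5, 21.2, 34.3 and 33.3 CPM in null ones. The genotypes overlapped, with a difference of -0.24 ± 0.27 (interval -0.81 to 0.33). Over the 24 libraries of the fit the log2 levels of Mcm4 and Prkdc had a Pearson r of 0.01, a description of libraries that share pools and fractions.
Ube2v2, the next gene towards Snai2, held 23.2 and 28.3 CPM in 3-month wild-type luminal cells and 23.5 and 23.9 CPM in null ones. At 12 months it held 9.65 and 16 CPM in wild type and 31.9 and 25.3 CPM in null cells. The genotypes overlapped at 3 months and were apart at 12 months, where null libraries were all higher for 3 of 9 neighbours (22% of all genes) and all lower for 1 of 9 (17.3%). At 3 months these counts were 1 of 9 (13.4%) and 3 of 9 (21.7%). The difference was -0.07 ± 0.38 at 3 months and 1.09 ± 0.38 at 12 months (interval 0.29 to 1.88, adjusted p = 0.787). The difference between the ages, tested as an interaction, was 1.16 ± 0.54 (adjusted p = 0.877). In that interaction 0 of 9 neighbours and 0% of all genes were called (39 genes by DESeq2, 0 of the 9), and 1 of 9, Ube2v2, against 5.62% of all genes had an unadjusted p under 0.05.

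Yars2 and Dnm1l, the 2 mitochondrial genes, lie 2589 bases apart and are transcribed towards each other. Dnm1l was the steadiest gene of the 9. It held 58.5, 57, 63.5 and 78.4 CPM in wild-type luminal libraries and 57.4, 66.3, 73.6 and 70.6 CPM in null ones. These ranges overlapped, and the difference was 0.05 ± 0.21 (interval -0.39 to 0.50), both under TMM scaling. As CPM of all counts the null luminal libraries all lay above the wild-type ones. Those values of Dnm1l were 61.5, 59.4, 52.3 and 62.5 in wild-type and 76.2, 71, 79.2 and 74.4 in null luminal libraries. The interval therefore bounds a difference only as far as TMM scaling holds. The 243 exon bases that Dnm1l shares with Gm49521 on the other strand could add reads, since the strand option of the counting is not given in the sources used here.
Yars2 held 10.2, 10.8, 7.91 and 13.2 CPM in wild-type luminal libraries, and 9.44, 21.8, 7.86 and 13.2 CPM in null ones. The single high value was F84, with 72 counts. The difference was 0.28 ± 0.52 (interval -0.81 to 1.37).
Cebpd, the C/EBP factor, held 16.1, 14.1, 18.7 and 14.7 CPM in wild-type luminal libraries. Null ones held 8.93 and 10.6 CPM at 3 months and 19.3 and 27 CPM at 12 months. Null values were below wild type at 3 months and above it at 12 months, and the mean difference of -0.09 ± 0.38 had an interval of -0.87 to 0.70. Between the ages in null luminal cells it differed by 1.22 ± 0.55 (adjusted p = 0.811). In that comparison 0 of 9 neighbours and 0% of all genes were called, and DESeq2 called 52 genes and 0 of the 9, with 1 of 9, Cebpd, and 5.8% of all genes at an unadjusted p under 0.05. Cebpd shares 562 exon bases with Spidr on the other strand, with the same limit as for Dnm1l.

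Pkp2, the desmosomal plakophilin, was a luminal gene. Wild-type luminal libraries held 34.8 and 36.3 CPM at 3 months and 71 and 60.4 CPM at 12 months. Null luminal libraries held 33.4 and 64.8 CPM at 3 months and 65.8 and 52.2 CPM at 12 months. The genotypes overlapped (0.15 ± 0.34, interval -0.55 to 0.85).
Wild-type basal libraries held 2.68 and 1.2 CPM at 3 months. The 3-month null luminal-basal libraries held 52.7 and 50.6 CPM, within the range of the luminal libraries, and the log2 difference from wild-type basal cells was 4.87 ± 0.59 (adjusted p = 0.000292). Pkp2 was the 1 of 9 neighbours called there, beside 0.313% of all genes (54 genes, 0.244% higher and 0.0696% lower). At an unadjusted p under 0.05 stood 2 of 9, Pkp2 and Prkdc (10.3% of all genes), and null libraries lay above wild type without overlap for 4 of 9 (17.2%) and below for 0 of 9 (18.6%). Both fractions carry other labels, and the 9 luminal markers summed to 1768 and 2095 CPM in the luminal-basal libraries, 976 to 1102 CPM in the wild-type basal and 3756 to 5300 CPM in the wild-type luminal ones; their part was not tested. With only the libraries compared the adjusted p was 0.0714. Prkdc stood at 0.97 ± 0.39 in the same comparison, with 47.4 and 33 CPM against 19.9 and 21.7 CPM (adjusted p = 0.371). Without the F82 luminal-basal library Cebpd was called too (-2.08, adjusted p = 0.0379), 2 of 9 beside 1.57% of all genes. F82 held 45.8 CPM of Cebpd and F84 8.93 CPM. Fibroblast markers summed to 3365 CPM in F82 and 245 CPM in F84, and their part was not tested.
In 12-month stroma Pkp2 stood at 28.1 CPM in the A6 null library against 5.07 and 19.3 CPM in wild type (1.26 ± 0.58, adjusted p = 1), and that library also held 1240 CPM of luminal markers against 263 and 634 CPM.

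Between the wild-type fractions, which lack the LacZ allele, 3 of the 9 neighbours passed for basal against luminal cells, beside 17.7% of all genes (11.1% higher and 6.63% lower). Efcab1 was higher in basal cells, as given above. Pkp2 was lower (-3.10 ± 0.38, adjusted p = 5.21e-06), with no overlap of libraries. Basal libraries lay apart from luminal ones for 1 of 9 neighbours below (10.4% of all genes) and 1 of 9 above (13.6%). Prkdc was lower too (-0.97 ± 0.28, adjusted p = 0.0167), with 19.9, 21.7, 12.5 and 23.3 CPM in basal libraries against the luminal values above. Those ranges overlapped through the A1 luminal library. The Prkdc call was lost without F81 luminal (adjusted p = 0.0771), F79 basal (0.0751), F81 basal (0.0549), A2 luminal (0.193) or A1 basal (0.119).
Mcm4 held 44.9, 39.1, 30.3 and 30.1 CPM in wild-type basal cells. It did not pass in edgeR (0.91 ± 0.33, adjusted p = 0.0597) and did in DESeq2 (adjusted p = 0.0237) and in 5 other settings. Fgd4 stood at -0.51 ± 0.24 (adjusted p = 0.158) and Ube2v2 at 0.60 ± 0.27 (adjusted p = 0.138).
For stroma against luminal cells 2 of 9 passed, beside 26.8% of all genes. Cebpd was higher in stroma, at 95.2, 115, 79.9 and 53.1 CPM, and all 4 values were above the luminal and the basal ones (2.44 ± 0.38, adjusted p = 4.24e-05). Pkp2 was lower, at 5.29, 5.42, 5.07 and 19.3 CPM (-2.55 ± 0.37, adjusted p = 1.69e-05). Stromal libraries lay apart from luminal ones for 1 of 9 neighbours above (17.5% of all genes) and 1 of 9 below (16.1%).
With age 1 neighbour changed in wild-type cells. Pkp2 rose in basal cells from 2.68 and 1.2 CPM to 19 and 18.3 CPM (3.36 ± 0.57, adjusted p = 0.0345), 1 of 9 beside 0.319% of all genes. Luminal markers beside it summed to 976 and 1102 CPM at 3 months and 1544 and 1575 CPM at 12 months, and their part was not tested. The call was lost with all 26 libraries (adjusted p = 0.119) and without F79 (0.263), F81 (0.3), A1 (0.159) or A2 (0.19).
No neighbour passed with age in wild-type luminal cells (0.667% of all genes called) or stroma (0.215%), nor in DESeq2, which called 280 and 130 genes. The unadjusted p was under 0.05 for 1 of 9 in luminal cells, Ube2v2 (-0.92 ± 0.38, adjusted p = 0.492, 7.87% of all genes), and for 2 of 9 in stroma, Efcab1 and Pkp2 (6.17%). The stromal Efcab1 value rested on A2, with 30 counts beside 0 in A1. The A2 stromal library also held 1483 CPM of basal markers against 447 CPM in A1, and their part was not tested.

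Levels per kb were taken over all annotated exons of a gene, merged. The lengths of the transcripts expressed were not measured, so the order between genes is approximate. Dnm1l had the highest median over the 12 wild-type libraries, 11.7 CPM per kb (range 9.92 to 15.1). Cebpd followed at 7.16 (3.75 to 30.8), Mcm4 at 6.32 (3.07 to 12.5), Fgd4 at 4.49 (2.58 to 5.4) and Pkp2 at 3.48 (0.224 to 13.3). Ube2v2 had 3.3 (1.35 to 5.04), Yars2 2.92 (1.79 to 4.19), Prkdc 2.3 (0.951 to 3.67) and Efcab1 0.0637 (0 to 2.69). Each range overlaps that of its neighbours in this order.

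The genes of most similar pattern to each neighbour, by Pearson r of log2 CPM over the 24 libraries of the fit, are a description among 17234 genes. For Efcab1 they were Brinp1 (0.95), Wif1 and C530050E15Rik (both 0.93). For Pkp2 they were the tight-junction genes Cldn4 (0.92) and Cldn7 (0.90) and the sodium pump gene Atp1b1 (0.89). Cebpd was most like Fzd2 and Cc2d2a (both 0.92) and Cd302 (0.91). Fgd4 was most like RP24-500I24.4 (0.84) and Mccc1 (0.83), and Ube2v2 like Tmed8 (0.80). Among the 9 neighbours, Efcab1 and Mcm4 had the highest r, 0.72, and Cebpd and Pkp2 the lowest, -0.64. Next-door pairs ranged from -0.64, for Cebpd and Pkp2, to 0.67, for Efcab1 and Ube2v2. Between these, Ube2v2 and Mcm4 had 0.58, Prkdc and Cebpd 0.14, and Pkp2 and Yars2 0.11. Mcm4 and Prkdc had 0.01, Dnm1l and Fgd4 -0.16, and Yars2 and Dnm1l -0.41.

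Working partners of the neighbours that lie elsewhere in the genome were counted from lists drawn up with earlier results of these data known. In the luminal mean 0 of 6 MCM genes, 0 of 6 end-joining genes, 0 of 2 ubiquitin partners, 0 of 5 C/EBP genes, 0 of 9 desmosome genes, 0 of 7 mitochondrial fission and fusion genes, 0 of 16 mitochondrial tRNA synthetases, 0 of 6 FGD and Cdc42 genes and 0 of 2 axoneme genes passed. At 12 months 1 luminal partner passed. Fgd5, a relative of Fgd4 known from endothelial cells, was higher in null luminal cells, at 12.1 ± 1.2 CPM against 1.7 ± 0.221 CPM (SD, n = 2; 2.75 ± 0.48, adjusted p = 0.0476). The 5 endothelial markers stood at 72.7 and 120 CPM in those null libraries against 31.9 and 41.3 CPM in wild type; their part was not tested. In 12-month basal cells, where markers differ, Dsp, Dsg2, Pkp1 and Pkp3 of the desmosome were lower and Pkp4 higher (4 and 1 of 9, beside 6.05% and 5.13% of all genes). Of the other lists, 1 of 6 end-joining genes (Xrcc6, -1.71 ± 0.55), 1 of 6 FGD and Cdc42 genes (Fgd1, -2.47 ± 0.74) and 1 of 2 axoneme genes (Ccdc114, -3.42 ± 1.07) were lower. Higher were 1 of 5 C/EBP genes (Ddit3, 1.79 ± 0.46) and 1 of 6 FGD and Cdc42 genes (Fgd5, 3.00 ± 0.41), and 0 passed in the other 4 lists. Dsp, which ties desmosomes to keratins, went from 565 ± 45.4 to 45.5 ± 9.73 CPM (-3.68 ± 0.52, adjusted p = 0.000396), while Pkp2 did not pass there (-0.41 ± 0.50, adjusted p = 0.627). Between wild-type stroma and luminal cells 7 of 9 desmosome genes were lower, beside 10.9% of all genes, among them Dsg2 (-3.01 ± 0.43), as Pkp2 was.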

How the data were processed

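Per the labels' protocols, sorted cells pooled from 3 mice gave RNA that was amplified with a NuGEN Ovation kit before library construction. The authors deposited HTSeq counts per gene, whole numbers from TopHat2 2.0.13 alignments to GRCm38, per the submitters' processing notes. The strand option of the counting is not given in the sources used here. Of 45706 genes 45143 matched GENCODE release 21 (mouse), which gave positions and exon lengths. From the counts, edgeR 4.0.16 (R 4.3.3) fitted 1 quasi-likelihood model with 1 coefficient for each of 13 groups to 24 libraries after filterByExpr (minimum count 10, minimum total 15) and TMM scaling. The 16 comparisons are contrasts of it, with p-values adjusted by Benjamini-Hochberg over all 17234 genes and called under 0.05. One estimate of spread serves all groups. CPM were scaled over all 26 libraries. Values after ± are SE for log2 differences and SD of 2 libraries for CPM, and intervals are 95%. Exact binomial intervals of ratios cover counting error only.

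Libraries of 1 pool come from the same mice, so pool numbers pair fractions. Deviations from group means of same-pool libraries correlated at 0.009 to 0.278, 12 of 20 pairs above 0.1. With 2 libraries in a group the deviations mirror each other, so each r is counted once for each of 2 pools. Genotypes share no pool. Alternatives were all 26 libraries, RLE scaling, no filter, a minimum count of 30, only the libraries compared, DESeq2 1.42.0, limma 3.58.1 (voom) with the pool as random block, CPM of all counts, other windows, and each library left out. The fit was tested on simulated data. The 9 genes, lists and tests were chosen with earlier results of these data known. Named were the 9 genes, Snai2, Rpl34-ps1, Rps2-ps10, tested genes within 2 Mb that were called or stood out, partners called, and the 3 genes of highest r. Krt14, Krt5, Col1a1 and the marker lists check fractions. Matplotlib 3.10.9 under Python 3.11.15 drew the figures.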

Additional observations from a re-analysis of the deposited data

Results flagged for a closer look

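The A5 library labelled stromal, which was outside the comparisons and held basal keratins, was above all 12 wild-type libraries for 4 of the 9 genes, as it was for 9.34% of all 17234 genes tested. It held 38.2 CPM of Efcab1, 39.2 CPM of Ube2v2, 47.4 CPM of Mcm4 and 51.7 CPM of Prkdc. The highest wild-type values of these genes were 11.9, 35.9, 44.9 and 48.4 CPM, the first 3 in basal and the last in luminal cells.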

How the results depend on the processing

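The count of neighbours called kept within 1.5 times its value in all 16 comparisons with RLE scaling, a minimum count of 30, DESeq2 and limma voom. With the pool as a replicate block (voom) it changed no count by more than that, and the 1 call it changed was Mcm4 in wild-type basal against luminal cells (0.99, adjusted p = 0.0211). No fixed block was possible between genotypes because they share no pool. Without the low-count filter 1 neighbour, Efcab1, was called in place of 0 in the luminal mean, in 12-month luminal cells, in the mean of 3 groups and with age in wild-type stroma. With all 26 libraries 0 in place of 1 was called in 12-month basal cells and with age in wild-type basal cells. With only the libraries compared the count was 0 in place of 1 in 12-month basal cells and for luminal-basal against wild-type basal cells, 6 in place of 3 for wild-type basal against luminal cells, and 1 in place of 0 with age in wild-type luminal cells (Pkp2). Leaving out 1 library gave 0 to 3 in 12-month basal cells, 1 to 2 for luminal-basal against wild-type basal cells and 0 with age in wild-type basal cells. Of 144 differences, 9 genes in 16 comparisons, 60 changed sign without some 1 library, 0 of them called with all 24, and the cause was not tested. The ranges of those printed above follow. In the luminal mean the ranges were -0.47 to 0.06 for Prkdc, -0.21 to 0.03 for Cebpd (0.01 without A1), -0.12 to 0.35 for Pkp2, -0.08 to 0.52 for Yars2 and -0.02 to 0.13 for Dnm1l. They were -0.21 to 0.02 for Ube2v2 in 3-month and -0.08 to 1.41 for Mcm4 in 12-month luminal cells, and -2.66 to 6.98 for Efcab1 with age in wild-type stroma, where A2 carries the counts. In 12-month basal cells they were -1.07 to 0.14 for Pkp2 and -4.75 to 0.26 for Yars2, and for luminal-basal against wild-type basal cells -2.08 to 0.22 for Cebpd. CPM of all counts moved 23 of 117 group means by over 1 SD. Over all genes, the calls in the luminal mean were 2, and 84 without the filter, 15 with only the libraries compared and 16 by DESeq2. In 12-month basal cells 1926 became 864 with all 26 libraries and 355 with only those compared, and 461 to 4711 without 1 library. For luminal-basal against wild-type basal cells 54 became 2 to 542 over all settings, left-out libraries included, in the mean of 3 groups 13 became 2 to 130, and with age in wild-type luminal cells 115 became 1 to 550, in basal cells 55 became 0 to 706 and in stroma 37 became 0 to 290. At these depths Efcab1 had 0 to 20 counts in luminal libraries, which leaves its luminal folds imprecise.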
